A study of Mus musculus with 30 samples.

Results

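Lachnospiraceae are a bacterial family of the order Clostridiales. Its members here were the amplicon sequence variants (ASVs) that the taxonomy of the filtered count table places in this family and that had at least 1 count in the 30 mice, namely 529 of 12980 ASVs, all with the order Clostridiales. The 16S rRNA gene was sequenced from stool bacteria of female C57BL/6 mice (C57BL/6J in the methods), 6 in each of 5 groups, which were 6 weeks old before the feeding and gave stool at its end. Control mice ate a normal diet and model mice a high-fructose diet (HFru), and both received saline by gavage. The remaining groups ate HFru and were gavaged with a phenylethanoid, at doses of 50 mg/kg (salidroside), 23 mg/kg (tyrosol) and 26 mg/kg (hydroxytyrosol), so HFru is shared by model and treated mice. Salidroside is the glucoside of tyrosol, hydroxytyrosol carries a further hydroxyl group on the ring, and the doses were matched to salidroside by molar conversion. Feeding lasted 8 weeks by the methods and 12 weeks by the legends.

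Lachnospiraceae are strict anaerobes of the large intestine that ferment plant fibre and sugars, and several release butyrate, a fuel of the colon lining. The taxonomy writes [Ruminococcus] in brackets for species such as gnavus and torques, which were once placed in Ruminococcus but belong to Lachnospiraceae. [Ruminococcus] gnavus is known for feeding on intestinal mucus. Ruminococcus without brackets is a genus of Ruminococcaceae and is no member here.

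The filtered table held from 41862 to 106609 counts per mouse, of which Lachnospiraceae had between 69 (control mouse 1) and 14664 (model mouse 6). A count of 0 allows up to 3 counts, a share of 0.00281% to 0.00717%, and this limit and the 95% Wilson intervals cover counting error only. A pair of mice stood apart. Model mouse 6 held 14.6% Lachnospiraceae (95% Wilson interval 14.4 to 14.8), while the other 5 model mice held 0.318% to 1.53%. Control mouse 6 carried ASVs of the HFru mice that the other 5 control mice lacked. Genera that grow in air (Acinetobacter, Jeotgalicoccus, Staphylococcus, Sporosarcina and Kurthia) took a median of 17.2% of the counts in control, 69.5% in model, 59.2% in salidroside, 69.2% in tyrosol and 49.1% in hydroxytyrosol mice, and the totals behind every share contain them. In shares, fewer Lachnospiraceae and more of other bacteria cannot be told apart.

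As a share of all counts, the family did not pass the test in any comparison. Control mice held 1.03% ± 1.40 (SD, n = 6), with a lowest value of 0.0942%, a median of 0.616% and a highest of 3.84%. Model mice held 3.17% ± 5.63 (SD, n = 6), with 0.318%, 1.06% and 14.6%. All model mice but mouse 6 lay inside the range of the control mice. The difference of 2.13 percentage points was smaller than the spread between mice (exact permutation p = 0.517, Benjamini-Hochberg p = 0.591 over families), and without model mouse 6 it turned to -0.155. Salidroside mice held 2.79% ± 2.13 (lowest 0.414%, median 2.30%, highest 5.91%), tyrosol mice 2.26% ± 1.73 (0.741%, 1.59% and 4.83%) and hydroxytyrosol mice 3.94% ± 2.53 (1.32%, 3.25% and 8.46%). Against model mice these differed by -0.375, -0.909 and 0.770 percentage points (exact permutation p = 0.968, 0.937 and 0.792). Without model mouse 6 the differences were 1.91, 1.38 and 3.06 (exact permutation p = 0.0693, 0.130 and 0.0130). Those of salidroside and tyrosol thus changed sign, and none passed over the families (adjusted p = 0.277, 0.438 and 0.0638). The 95% intervals of the differences were wide, from -6.12 to 3.72 for salidroside, from -6.52 to 2.89 for tyrosol and from -5.03 to 5.13 for hydroxytyrosol. Across the 5 groups the permutation Kruskal-Wallis p was 0.0669.

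**Figure D1:**
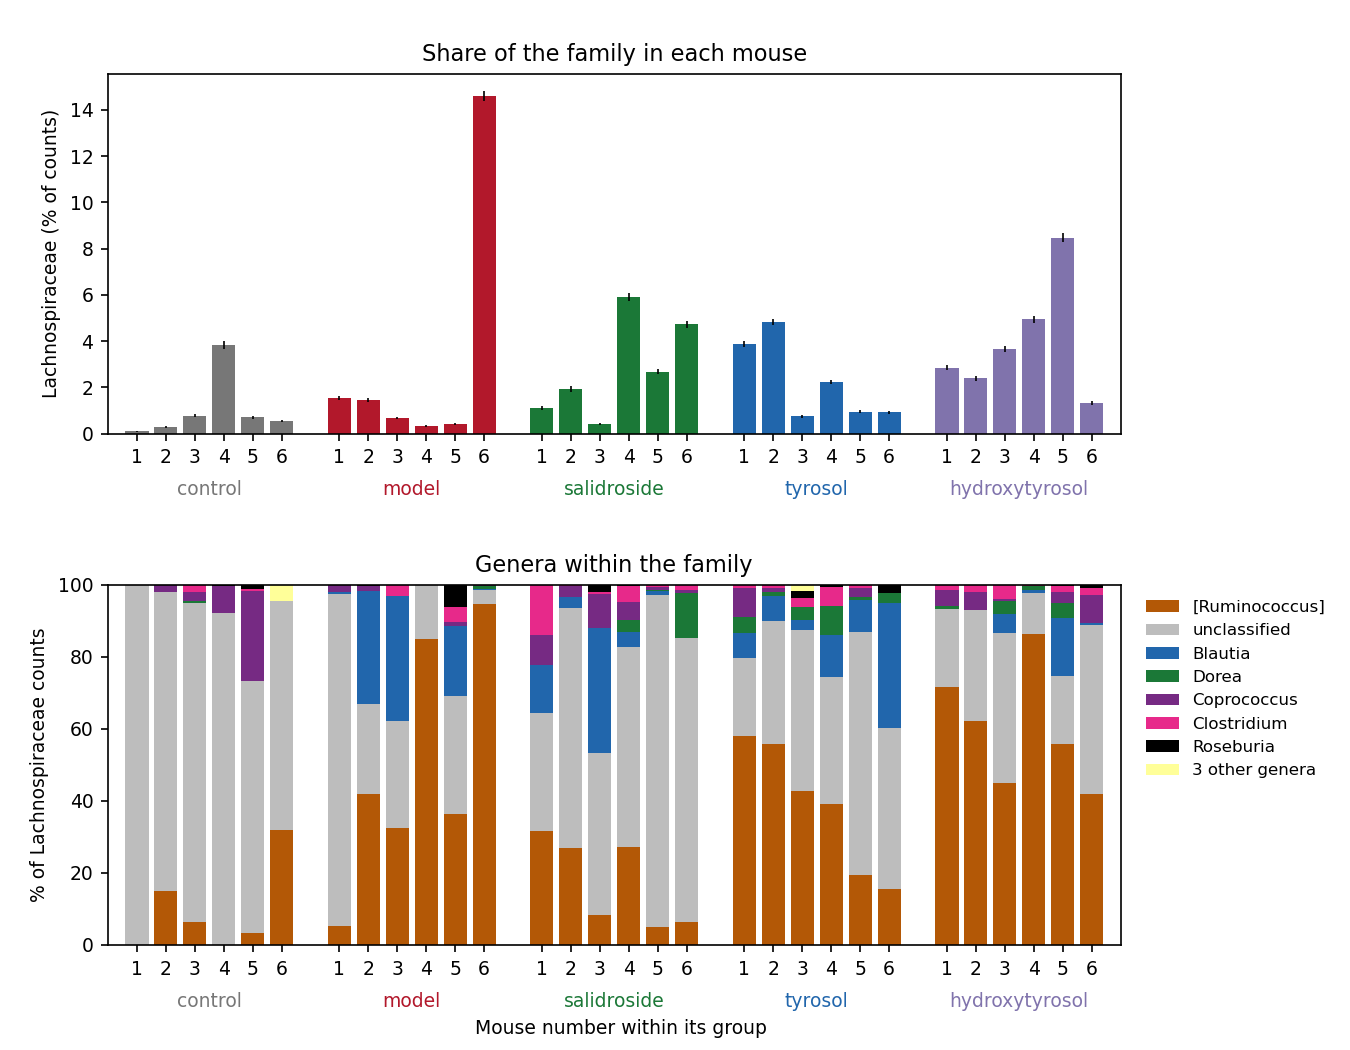
The upper panel plots Lachnospiraceae as a percent of all counts in each of the 30 mice, with 95% Wilson intervals as bars, and the lower panel the genera as a percent of the Lachnospiraceae counts of the same mouse. Model mouse 6 rises to 14.6%, and ASVs without a genus name fill from 63.4% to 100% of the family in control mice.

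Counts summed per family and fitted in edgeR gave no call of Lachnospiraceae either. The log2 fold change of model against control mice was 3.04 (SE 1.31, edgeR adjusted p = 0.0717), where 23.2% of all families tested were called. It was 1.62 without TMM scaling, which sets library sizes from the bulk of the taxa, and 0.69 without model mouse 6. Against model mice it was -0.34 for salidroside, -1.05 for tyrosol and -0.57 for hydroxytyrosol (edgeR adjusted p = 0.832, 0.476 and 0.720), where 15.7%, 3.45% and 12.3% of the families were called. Without model mouse 6 all 3 values turned positive (1.37, 1.10 and 1.74). The value of hydroxytyrosol had no settled direction, since it was 0.31 without TMM and reversed in 7 of 12 fits with 1 mouse left out.

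Within the order Clostridiales, the family took a larger part in model than in control mice. Lachnospiraceae made up 25.9% ± 16.0 (SD, n = 6) of the Clostridiales counts in control mice (lowest 14.3%, median 17.4%, highest 53.8%). In model mice they made up 62.7% ± 24.0 (SD, n = 6; lowest 36.8%, median 57.5%, highest 92.6%). The model mouse was the higher in 33 of 36 pairings, and the other 3 all involved control mouse 6. The difference of 36.8 percentage points (95% interval 10.5 to 63.0) had an exact permutation p = 0.0130, which adjusts to 0.0455 over the 7 Clostridiales families tested and to 0.0833 over the 7 comparisons between groups. The genera that grow in air are no part of this denominator. Tyrosol mice had 41.2% ± 11.3, salidroside mice 63.4% ± 14.9 and hydroxytyrosol mice 60.9% ± 16.0. Salidroside and hydroxytyrosol exceeded tyrosol by 22.1 and 19.7 percentage points (exact permutation p = 0.0238 and 0.0455), which did not pass over the 7 comparisons (adjusted p = 0.0833 and 0.106). Of the other Clostridiales families, [Mogibacteriaceae] rose from control to model mice by 4.88 on the log2 scale (SE 1.88, edgeR adjusted p = 0.0473) and Clostridiaceae fell by 5.53 (SE 1.95, edgeR adjusted p = 0.0343). Whether Lachnospiraceae changed differently from these families was not tested.

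[Ruminococcus] was the genus with the most counts, 52.6% of all Lachnospiraceae counts in 56 ASVs, of which 43 are assigned to gnavus, 1 to torques and 12 to no species. The 12 without a species name held 32779 of its 36972 counts. Its share of all counts in control mice 1 to 6 was 0%, 0.0402%, 0.0501%, 0.00239%, 0.0243% and 0.170%. In model mice 1 to 6 it was 0.0809%, 0.607%, 0.220%, 0.269%, 0.152% and 13.8%. Control mouse 6 was the only control mouse above the lowest model mouse. [Ruminococcus] rose in model against control mice, by 6.23 on the log2 scale (SE 1.79, edgeR adjusted p = 0.0152), where 18.9% of all 90 genera tested were called. The call was lost without model mouse 6 (log2 fold change 2.91, edgeR adjusted p = 0.129), control mouse 2 (edgeR adjusted p = 0.0523) or control mouse 4 (edgeR adjusted p = 0.0530). Ranks of the shares, a test added after the data were seen, gave an exact permutation p = 0.00866 and an adjusted p of 0.0708 over the genera.

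In treated mice the shares of [Ruminococcus] were spread widely. The lowest, median and highest were 0.0348%, 0.325% and 1.60% with salidroside, 0.145%, 0.596% and 2.70% with tyrosol, and 0.552%, 1.84% and 4.73% with hydroxytyrosol. The lowest hydroxytyrosol mouse lay above 4 of the 6 model mice. Against model mice, the log2 fold changes were -3.07 for salidroside (SE 1.50, edgeR adjusted p = 0.374), -2.38 for tyrosol (SE 1.34, edgeR adjusted p = 0.308) and -0.44 for hydroxytyrosol (SE 1.31, edgeR adjusted p = 0.859), where 4.44%, 2.08% and 4.26% of the genera tested were called. None of the 3 passed. Without model mouse 6 all 3 values turned positive, at 0.64, 1.02 and 2.43, and again none passed (edgeR adjusted p = 0.856, 0.560 and 0.161). The mean of the model group, 2.53% ± 5.55 (SD, n = 6), rests on mouse 6, and its median was 0.245%.

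As a part of the family, [Ruminococcus] was higher in every hydroxytyrosol mouse than in every salidroside mouse. It made up 60.5% ± 16.8 (SD, n = 6) of the Lachnospiraceae counts with hydroxytyrosol, from 42.0% to 86.4%, and 17.6% ± 12.2 with salidroside, from 5.04% to 31.6%. The difference of 42.9 percentage points (95% interval 24.2 to 61.3) had an exact permutation p = 0.0022, the lowest value this design can give. Over the 49 tests of 7 genera in 7 comparisons it adjusts to 0.0530, and the measure was added after the data were seen. Tyrosol mice had 38.5% ± 17.9, model mice 49.3% ± 34.0 (5.30% to 94.8%) and control mice 9.49% ± 12.3. In the order of means, tyrosol and salidroside differed by 20.9 percentage points in size (exact permutation p = 0.0498, adjusted p = 0.241), and tyrosol against model mice (-10.8, exact permutation p = 0.504) and hydroxytyrosol against model mice (11.2, exact permutation p = 0.472) by less than their spread. Model mice exceeded control mice by 39.8 percentage points (exact permutation p = 0.0152, adjusted p = 0.124), and salidroside differed from model mice by -31.7 (exact permutation p = 0.0433, adjusted p = 0.241).

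**Figure D2:**
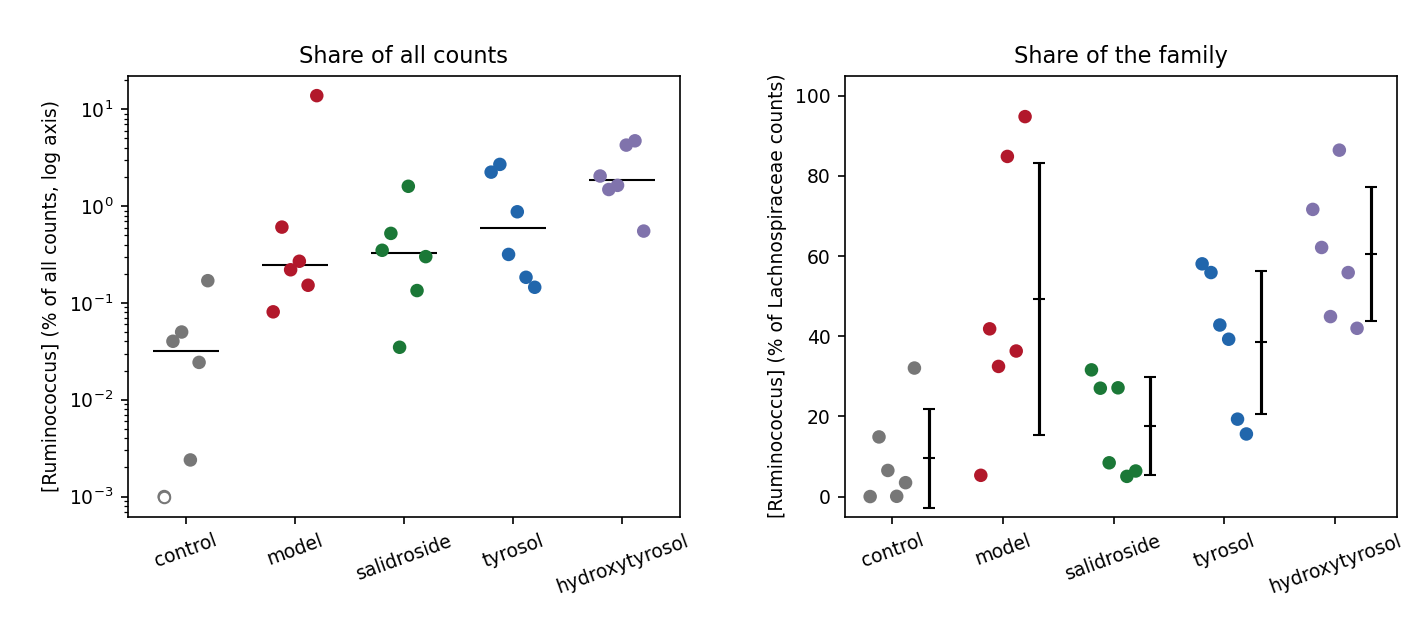
The left panel plots [Ruminococcus] as a percent of all counts on a log axis for each mouse, with group medians as lines and control mouse 1, which had 0 counts, as an open circle at the foot. The right panel plots it as a percent of the Lachnospiraceae counts of the mouse, with mean ± SD, n = 6 per group, and the hydroxytyrosol mice (42.0% to 86.4%) lie above all salidroside mice (5.04% to 31.6%).

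ASVs with no genus name were the most numerous, 353 of the 529, with 35.0% of the family's counts. They made up 82.8% ± 13.8 (SD, n = 6) of the family in control mice and 33.2% ± 30.8 in model mice, a difference of -49.6 percentage points (exact permutation p = 0.0130, adjusted p = 0.124 over the same 49 tests). As a share of all counts their median was 0.413% in control, 0.283% in model, 1.87% in salidroside, 0.714% in tyrosol and 0.677% in hydroxytyrosol mice. In edgeR they did not pass in model against control mice (log2 fold change -1.05, SE 1.25, adjusted p = 0.529) or in the other 6 comparisons (adjusted p from 0.405 to 0.866).

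Blautia, acetate-producing anaerobes, had 0 counts in all 6 control mice. Model mice 1 to 6 had 8, 420, 239, 0, 85 and 14 counts of it. Blautia rose in the model group by at least 29.8-fold, against a floor of 3 counts in each control mouse, or at least 15.3-fold without model mouse 2 (edgeR adjusted p = 0.00788). Only 4 model mice reached the 10 counts that the filter on low values asks for, so Blautia passed it through the model group alone and could not be tested without any of these 4. Ranks of the shares gave an exact permutation p = 0.0152 and an adjusted p of 0.0909 over the genera. In treated mice its mean share was 0.103% ± 0.0893 (SD, n = 6) with salidroside, 0.216% ± 0.130 with tyrosol and 0.266% ± 0.537 with hydroxytyrosol, where mouse 5 alone had 1.35%. None of these differed from model mice beyond the spread (edgeR adjusted p = 0.938, 0.937 and 0.927). Of its 42 ASVs, 21 are assigned to Blautia producta, with 1878 of the genus' 3909 counts.

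Dorea, which makes gas and acetate from sugars, was found in 1 control mouse, 1 model mouse, 3 salidroside mice, all 6 tyrosol mice and 4 hydroxytyrosol mice. The only model mouse with counts was mouse 6, at 0.126%. Tyrosol mice held from 0.00827% to 0.18%, with a median of 0.0421%. The log2 fold change of tyrosol against model mice was 0.73 (SE 1.68, edgeR adjusted p = 0.803), and without model mouse 6 Dorea was called in this comparison (edgeR adjusted p = 0.0106), with 0 counts in all model mice that remained. In that fit Dorea passed the filter on low values through the tyrosol group alone, since the only model mouse with counts was left out. As a percent of the family's counts, Dorea was 3.50% ± 2.63 (SD, n = 6) in tyrosol mice and 0.143% ± 0.351 in model mice, with no overlap (exact permutation p = 0.0022, adjusted p = 0.0530 over the 49 tests). The margin was narrow, at 0.868% in tyrosol mouse 5 (8 counts) against 0.859% in model mouse 6. The other model mice had 0 counts of Dorea among 310 to 1341 family counts each, where up to 3 counts remain possible.

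Coprococcus, a genus with butyrate producers, had a median share of 0.0123% in control, 0.0116% in model, 0.0546% in salidroside, 0.0124% in tyrosol and 0.113% in hydroxytyrosol mice. It had counts in 4 of 6 model mice and in all mice given salidroside or hydroxytyrosol. Its log2 fold change against model mice was 2.16 for salidroside (SE 1.39, edgeR adjusted p = 0.438) and 2.48 for hydroxytyrosol (SE 1.33, edgeR adjusted p = 0.253), and neither passed. From control to model mice it changed by -2.38 (SE 1.7, edgeR adjusted p = 0.290).

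Clostridium, here the species that the taxonomy keeps in Lachnospiraceae such as symbiosum and aldenense, reached at most 0.0197% in any model mouse, and 3 of 6 salidroside mice, 3 of 6 tyrosol mice and 5 of 6 hydroxytyrosol mice lay above that. Its log2 fold changes against model mice were 2.89, 1.46 and 2.18 for salidroside, tyrosol and hydroxytyrosol (edgeR adjusted p = 0.386, 0.584 and 0.395). Roseburia, butyrate producers that degrade plant polysaccharides, reached at most 0.0259% in any mouse and was tested only between hydroxytyrosol and tyrosol (log2 fold change -0.83, SE 1.47, edgeR adjusted p = 0.866). Epulopiscium (20 counts, control mouse 6), Shuttleworthia (13 counts, tyrosol mouse 3) and Anaerostipes (3 counts, tyrosol mouse 4) were each found in a single mouse.

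Of the 10 Lachnospiraceae genera, counting the ASVs without a genus name as 1, edgeR called 2 of the 4 tested in model against control mice, both upward, where 18.9% of all genera were called. These were [Ruminococcus], whose call was lost without model mouse 6, and Blautia, which passed the filter on low values through the model group alone. Ranks of the shares called 0 of the 4. EdgeR called 0 of 5, 6 and 6 tested against model mice with salidroside, tyrosol and hydroxytyrosol, where 4.44%, 2.08% and 4.26% of all genera were called.

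**Figure D3:**
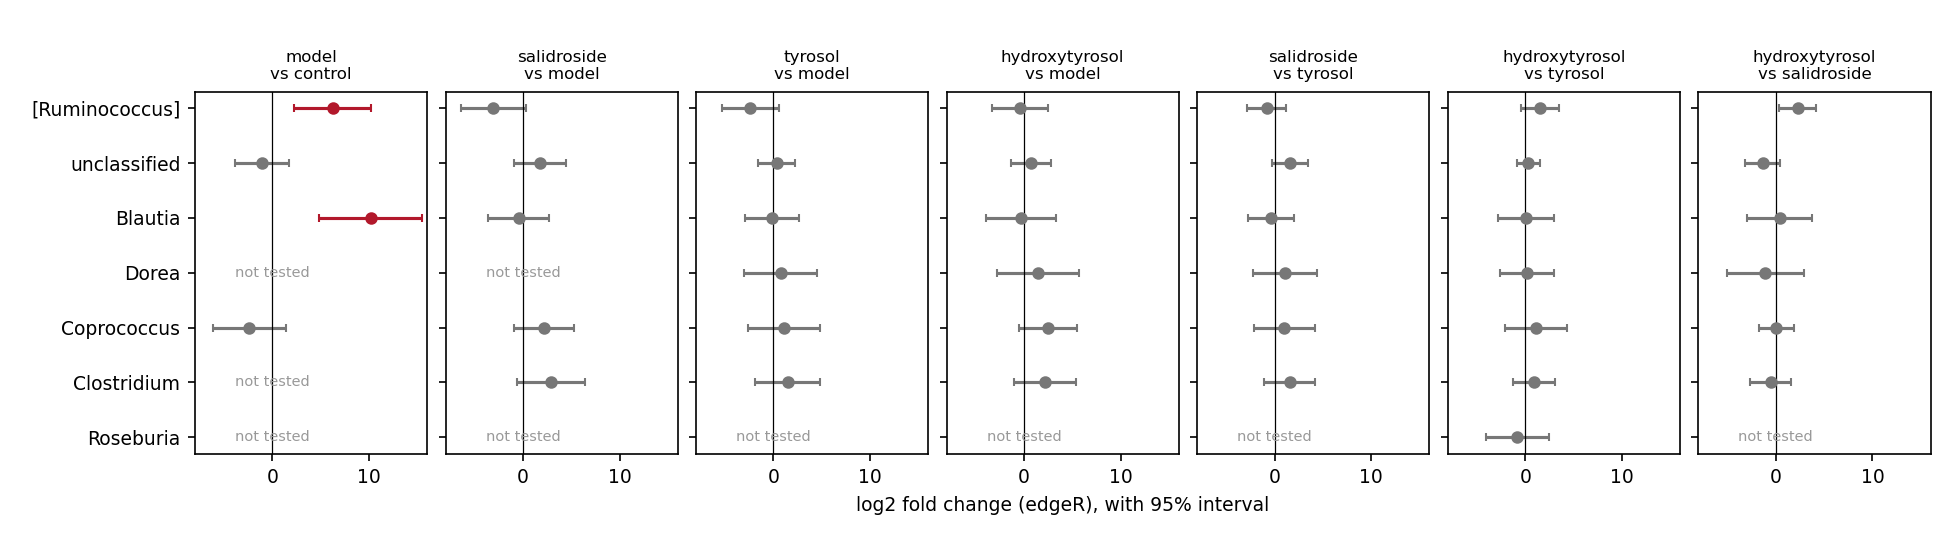
Each panel gives edgeR's log2 fold change of the Lachnospiraceae genera in 1 of the 7 comparisons, with 95% intervals, and a genus under the filter on low counts is marked as not tested. Red points, [Ruminococcus] and Blautia in model against control mice, have an adjusted p under 0.05, and the fitted value of Blautia depends on the zeros of all control mice.

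Single ASVs carried these shares unevenly, and they are called here by their rank in the family's counts. The 10 with the most counts held 77.4% of the family's counts, and 369 of the 529 ASVs (69.8%) were found in 1 mouse, against 71.1% of all ASVs in the table. Only 18 Lachnospiraceae ASVs (3.40%) occurred both in control mice and in mice on HFru, where all ASVs gave 1298 of 12980. Without control mouse 6 they were 16, and their part of the family's counts fell from 58.2% to 11.8%. Of the 529 ASVs, 25 had enough counts to be tested in any comparison, with 86.4% of the counts, and 504 were never tested.

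Several Lachnospiraceae ASVs came first in a mouse, some of them in more than 1 group. Control mice had 5 different leading ASVs in 6 mice, all without a genus name, and hydroxytyrosol mice had 2. ASV 1, a [Ruminococcus] without a species name, came first in 13 of the 30 mice, namely 0 control, 3 model, 1 salidroside, 4 tyrosol and 5 hydroxytyrosol mice. ASV 2, which has no genus name, came first in salidroside mice 4, 5 and 6 and in tyrosol mouse 5. ASV 7, a Blautia, came first in model mice 2 and 3, salidroside mouse 3 and tyrosol mouse 6. The leading ASV took from 16.0% to 74.1% of the family's counts.

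**Figure D4:**
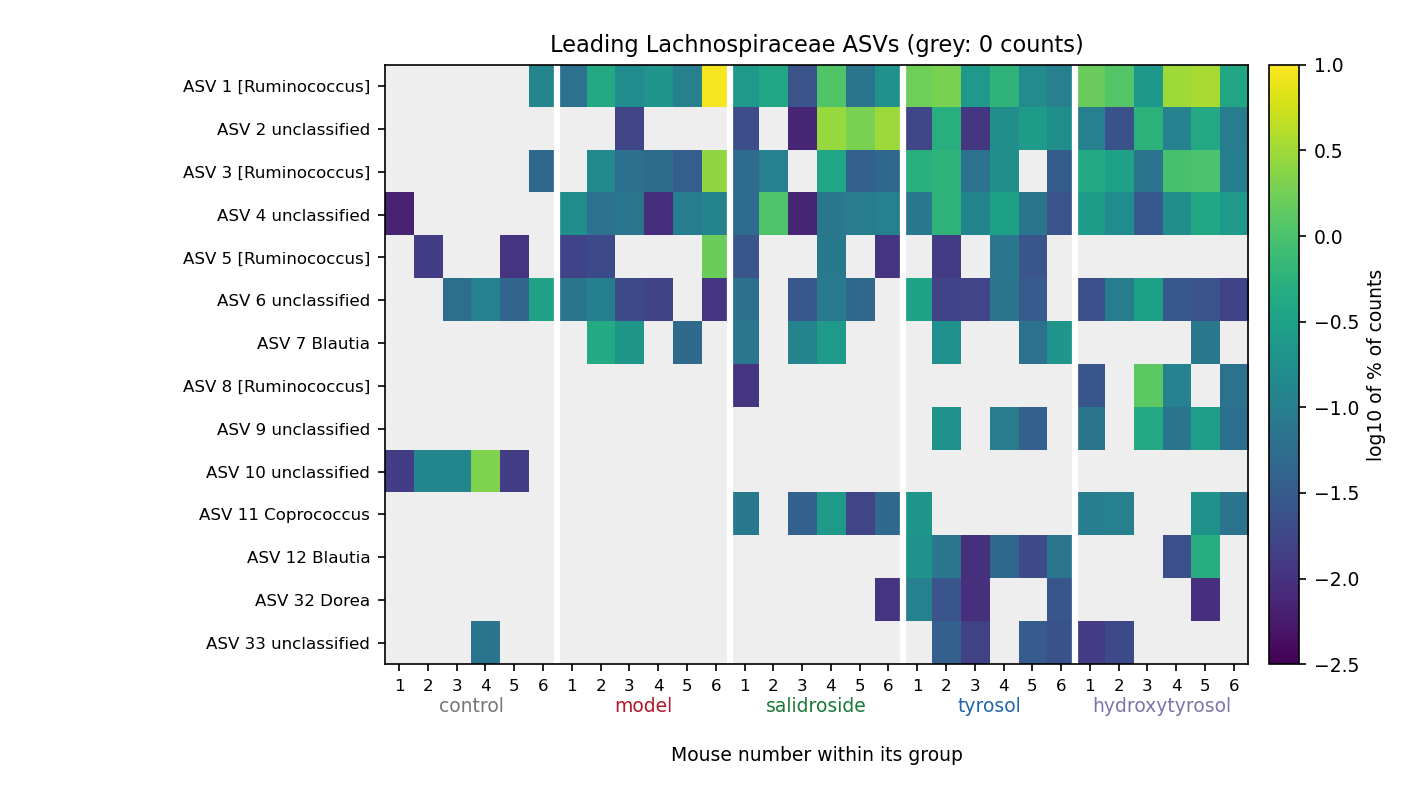
Colour gives the share of each of 14 named Lachnospiraceae ASVs (rows, by rank) in each of the 30 mice (columns) as log10 of the percent of counts, and grey marks 0 counts. ASV 10 appears in 5 control mice and no other mouse, ASV 1 in all 24 mice on HFru and in control mouse 6, and ASVs 8, 9, 11 and 12 have 0 counts in all control and all model mice.

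In model against control mice edgeR called 1 ASV downward and 3 upward. ASV 10, without a genus name, had 10, 93, 108, 892, 10 and 0 counts in control mice 1 to 6 and 0 counts in all 24 mice on HFru. It was at least 130-fold higher in control than in model mice, or at least 18.4-fold higher without control mouse 4 (edgeR adjusted p = 0.00548). It passed the filter on low values through the control group alone, and without that filter the call was lost (edgeR adjusted p = 0.0936). ASV 1 had 0 counts in control mice 1 to 5 and 103 in control mouse 6, and 57, 391, 163, 206, 112 and 9110 in model mice. It rose in model mice by 9.36 on the log2 scale (SE 2.81, edgeR adjusted p = 0.00551), a call lost without model mouse 6 (3.42, edgeR adjusted p = 0.3) or control mouse 4 (7.12, edgeR adjusted p = 0.0503). With 1 mouse left out the value of ASV 1 ran from 3.42 to 15.3. Without the filter on low values ASVs 1, 3 and 5 all lost their calls (edgeR adjusted p = 0.0936 in each), and without TMM scaling ASVs 3 and 5 did (edgeR adjusted p = 0.0733 and 0.0754). The log2 fold changes without TMM were smaller, 6.34 for ASV 1, 5.94 for ASV 3 and 6.03 for ASV 5.

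ASV 3, also a [Ruminococcus] without a species name, was absent from the same 5 control mice, had 39 counts in control mouse 6, and had 0, 137, 60, 53, 37 and 2650 in model mice. It rose by 8.94 on the log2 scale (SE 2.84, edgeR adjusted p = 0.00675), and the call was lost without any of control mice 1 to 5 or without model mouse 6 (edgeR adjusted p from 0.0568 to 0.306). With 1 mouse left out its log2 fold change ran from 3.10 to 13.5. Wherever ASV 3 was found, ASV 1 was found too, in 22 mice, with a count ratio of ASV 1 to ASV 3 between 1.91 and 4.77 and a median of 3.40. ASV 5, assigned to gnavus, had 10 counts in control mouse 2 and 8 in control mouse 5, and 14, 18 and 1642 in model mice 1, 2 and 6. It rose by 8.24 (SE 2.80, edgeR adjusted p = 0.0119), and the call was lost without control mouse 1, 3, 4 or 5 (edgeR adjusted p from 0.0586 to 0.104). ASV 5 had 0 counts in 4 control and 3 model mice, its high value lay in model mouse 6 alone, and without any of the 4 mice with at least 10 counts it fell under the filter.

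These 4 ASVs were called of 7 Lachnospiraceae ASVs tested in this comparison, where 30.4% of all 411 ASVs tested were called. ASV 4, without a genus name, had 5 counts in control mouse 1, 0 in the others, and 9 to 153 in every model mouse, and it missed the threshold in edgeR (log2 fold change 5.73, SE 2.56, adjusted p = 0.0794) but passed in DESeq2 (log2 fold change 5.71, adjusted p = 0.00763). ASV 6, without a genus name, was found in 4 control and 5 model mice and differed by -0.49 on the log2 scale (SE 2.04, edgeR adjusted p = 0.875). Control mouse 6 had 275 counts of ASV 6, which led the family there.

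With salidroside, 2 ASVs rose over model mice. Both met the filter on low values through the salidroside group alone, and their calls were lost without it. ASV 2 had 0 counts in all control mice and 17 counts in model mouse 3 alone, and 16, 0, 7, 2465, 1750 and 2839 in salidroside mice. Its log2 fold change was 9.61 (SE 2.88, edgeR adjusted p = 0.0279), and the salidroside mice split into 3 with at least 1750 counts and 3 with at most 16. The call was lost without model mouse 2, 4 or 5 or salidroside mouse 5 or 6 (largest edgeR adjusted p = 0.0972). ASV 2 had counts in all tyrosol mice (12 to 513) and all hydroxytyrosol mice (17 to 571), with log2 fold changes against model mice of 6.16 and 5.64 that did not pass in edgeR (adjusted p = 0.0644 and 0.0517). DESeq2 called ASV 2 in both (adjusted p = 0.000861 and 2.63e-05), and edgeR called it with hydroxytyrosol without model mouse 6 (adjusted p = 0.0493). ASV 11, a Coprococcus, had 0 counts in all model mice and 62, 0, 35, 209, 15 and 46 in salidroside mice. It was at least 23.3-fold higher with salidroside, or at least 12.2-fold without salidroside mouse 4 (edgeR adjusted p = 0.0237), and the call was lost without any of model mice 2 to 5 (largest edgeR adjusted p = 0.0792).

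With tyrosol, 3 ASVs rose over model mice, where all had 0 counts. All 3 passed the filter on low values through the tyrosol group alone, and their calls were lost without it. ASV 12, assigned to Blautia producta, had 177, 80, 10, 51, 20 and 67 counts in tyrosol mice and 0 in all control, model and salidroside mice. It was at least 22.9-fold higher than in model mice, or at least 14.9-fold without tyrosol mouse 1 (edgeR adjusted p = 0.0138), and the call was lost without the filter (edgeR adjusted p = 0.142). Hydroxytyrosol mice 4 and 5 had 19 and 409 counts of it. ASV 32, a Dorea, had 99, 28, 10, 0, 0 and 24 counts in tyrosol mice, at least 9.31-fold higher than in model mice, or at least 4.09-fold without tyrosol mouse 1 (edgeR adjusted p = 0.0230, and 0.0667 without model mouse 3). ASV 33, without a genus name, had 39, 16, 32 and 21 counts in tyrosol mice 2, 3, 5 and 6, at least 5.87-fold higher than in model mice (edgeR adjusted p = 0.0290). Its call was lost without model mouse 2, 3, 5 or 6 (largest edgeR adjusted p = 0.0750), and without any of the 4 tyrosol mice it fell under the filter.

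With hydroxytyrosol, 3 ASVs rose over model mice, where all had 0 counts. All 3 passed the filter on low values through the hydroxytyrosol group alone, and their calls were lost without it. ASV 8, assigned to gnavus, had 28, 0, 1321, 94, 0 and 56 counts in hydroxytyrosol mice and 8 in salidroside mouse 1. It was at least 82.5-fold higher than in model mice, or at least 13.2-fold without hydroxytyrosol mouse 3 (edgeR adjusted p = 0.00404). ASV 9, without a genus name, had 73, 0, 406, 60, 246 and 53 counts, at least 48.6-fold higher, or at least 32.0-fold without hydroxytyrosol mouse 3 (edgeR adjusted p = 0.00404). It had 206, 100 and 36 counts in tyrosol mice 2, 4 and 5 too. ASV 11, the Coprococcus that rose with salidroside, had 101, 77, 0, 0, 170 and 62 counts in hydroxytyrosol mice, at least 25.7-fold higher than in model mice (edgeR adjusted p = 0.00404). It was found in tyrosol mouse 1 alone of that group, at 200 counts.

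Of the Lachnospiraceae ASVs tested against model mice, 2 of 11 were called with salidroside, 3 of 15 with tyrosol and 3 of 13 with hydroxytyrosol, all upward, where 4.19%, 8.49% and 32.8% of all ASVs tested were called. All of these but ASV 2 had 0 counts in the model group, and ASV 2 had counts in model mouse 3 alone. All of them, ASV 2 included, met the filter on low values through the treated group alone. Without that filter edgeR called 0 Lachnospiraceae ASVs in each of these comparisons. The 3 comparisons share the model mice.

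The number of Lachnospiraceae ASVs per mouse was counted in the table that the authors rarefied to 39768 counts per mouse. Control mice had 20.5 ± 15.9 (SD, n = 6) and model mice 27.2 ± 17.4. Under treatment the numbers were 30.3 ± 11.6 (salidroside), 33.3 ± 10.7 (tyrosol) and 38.7 ± 14.4 (hydroxytyrosol). Numbers ranged from 6 in control mice 1 and 6 to 66 in hydroxytyrosol mouse 5, and model mouse 6 had 60. None of the 7 comparisons passed (exact permutation test, adjusted p = 0.695 in each). The difference between model and control mice was 6.67 ASVs (95% interval -14.5 to 28.0), with 0.1 without model mouse 6 and 11.4 without control mouse 4. Against model mice, salidroside, tyrosol and hydroxytyrosol differed by 3.17, 6.17 and 11.5 ASVs. Without model mouse 6 these were 9.73, 12.7 and 18.1 (exact permutation p = 0.121, 0.0476 and 0.00866, not adjusted).

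At equal depth within the family, tyrosol mice had more Lachnospiraceae ASVs than model mice. In 100 Lachnospiraceae counts, the expected number of ASVs was 15.6, 16.0, 15.1, 8.32, 16.0 and 9.94 in model mice 1 to 6 and 17.9, 17.8, 19.0, 19.0, 19.9 and 17.2 in tyrosol mice 1 to 6. Every tyrosol mouse lay above every model mouse, with means of 18.4 ± 1.0 (SD, n = 6) and 13.5 ± 3.44. The difference was 4.95 ASVs (95% interval 2.04 to 8.39, exact permutation p = 0.0022, adjusted p = 0.0152 over the 7 comparisons), with 3.64 in 50 counts and 6.27 in 200 counts. Across the 5 groups the permutation Kruskal-Wallis p was 0.245 for this measure and 0.220 for the ASV number in the rarefied table. In model mice 4 and 6, which had the lowest numbers, ASV 1 took 66.5% and 62.1% of the family's counts. Salidroside mice had 16.0 ± 4.23 and hydroxytyrosol mice 16.2 ± 3.31, which differed from model mice by 2.54 and 2.74 (exact permutation p = 0.297 and 0.186). Control mice had 15.6 ± 7.63 (n = 5), since control mouse 1 had fewer than 100 family counts. The number of all ASVs in the rarefied table averaged 803 in tyrosol and 788 in model mice (95% interval of the difference -196 to 220, exact permutation p = 0.874). The genera that grow in air took medians of 69.2% and 69.5%. Whether either bears on the difference at equal family depth was not tested.

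**Figure D5:**
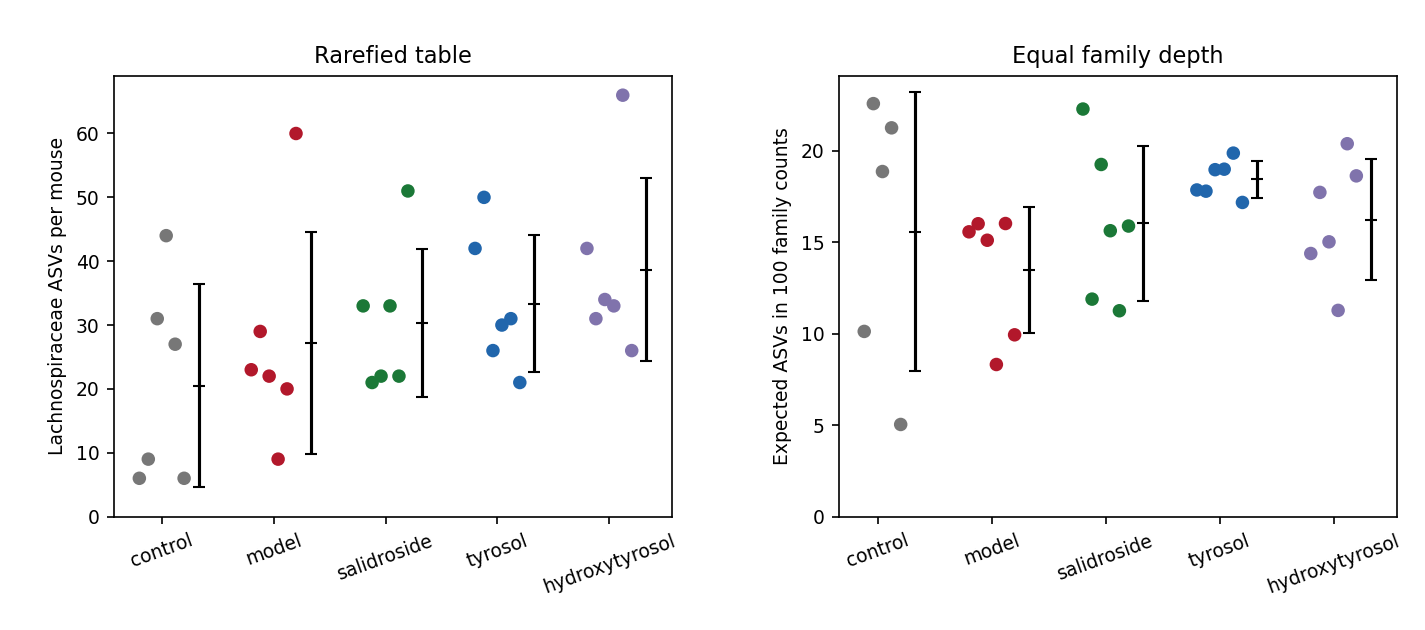
The left panel plots the number of Lachnospiraceae ASVs of each mouse in the rarefied table and the right panel the expected number in 100 Lachnospiraceae counts, with mean ± SD of 6 mice per group (5 control mice in the right panel). In the right panel all tyrosol mice (17.2 to 19.9) lie above all model mice (8.32 to 16.0).

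The 3 compounds, given at molar-equivalent doses, were compared in 3 pairs, and at the level of the family they did not separate. The difference in the family's share was 0.534 percentage points for salidroside against tyrosol (95% interval -2.01 to 3.06), 1.68 for hydroxytyrosol against tyrosol (-1.03 to 4.49) and 1.14 for hydroxytyrosol against salidroside (-1.82 to 4.17), with exact permutation p = 0.634, 0.210 and 0.424. All 3 turned negative with Acinetobacter taken from the total (-0.622, -0.689 and -0.0668). The edgeR log2 fold changes of the family were 0.39 (95% interval -1.29 to 2.07), 1.04 (-0.25 to 2.33) and 0.62 (-1.03 to 2.27), with adjusted p = 0.848, 0.324 and 0.689, where 2.13%, 1.89% and 0.0% of the families tested were called. The ASV number at equal family depth differed by -2.41 (95% interval -6.25 to 1.53), -2.21 (-5.49 to 0.94) and 0.205 (-4.59 to 5.09), with exact permutation p = 0.214, 0.156 and 0.935.

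Salidroside and tyrosol, which differ by the sugar, did not separate in any of the 6 Lachnospiraceae genera tested in edgeR (adjusted p from 0.405 to 0.960), and 0.0% of all genera and 0.0% of all ASVs tested were called. For [Ruminococcus] the log2 fold change was -0.84 (95% interval -2.85 to 1.17). Of the 17 Lachnospiraceae ASVs tested in this pair 2 had an unadjusted p under 0.05, ASV 33 and ASV 12. ASV 12 had counts in all tyrosol mice and 0 in all salidroside mice (edgeR adjusted p = 0.0606), and DESeq2 called it (adjusted p = 4.73e-05). It passed the filter through the tyrosol group alone.

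Hydroxytyrosol and tyrosol, which differ by the hydroxyl group, did not separate in any of the 7 genera tested (edgeR adjusted p from 0.381 to 0.961), where 1.11% of all genera were called. For [Ruminococcus] the log2 fold change was 1.53 (95% interval -0.41 to 3.48). Of 19 ASVs tested 1 was called, ASV 8, at least 83.6-fold higher with hydroxytyrosol than with tyrosol, where it had 0 counts, or at least 13.3-fold without hydroxytyrosol mouse 3 (edgeR adjusted p = 0.0111). In that pair 27.0% of all ASVs tested were called. Only 4 hydroxytyrosol mice carried ASV 8, so it passed the filter through that group alone, and without any of them it fell under it. With no filter the call was lost (edgeR adjusted p = 0.0549).

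Hydroxytyrosol and salidroside differ by both the hydroxyl group and the sugar. The log2 fold change of [Ruminococcus] was 2.25 (SE 0.87, 95% interval 0.30 to 4.19, edgeR adjusted p = 0.298), where 0.0% of all genera were called. It was the only Lachnospiraceae genus with an unadjusted edgeR p under 0.05 in the 6 comparisons without control mice, and DESeq2 called it (adjusted p = 0.0145). Of 13 ASVs tested 1 was called, ASV 9, at least 37.2-fold higher with hydroxytyrosol than with salidroside, where it had 0 counts, or at least 24.5-fold without hydroxytyrosol mouse 3 (edgeR adjusted p = 0.0253). Here 10.7% of all ASVs tested were called, and the call of ASV 9 was lost without salidroside mouse 6 (edgeR adjusted p = 0.0578). ASV 9 too passed the filter through the hydroxytyrosol group alone, and its call was lost with no filter (edgeR adjusted p = 0.102).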

How the data were processed

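Stool DNA of 30 mice was amplified over the 16S rRNA gene and sequenced. According to the methods the authors merged read pairs, filtered them by quality and removed chimeras. The deposited tables hold counts of reads per ASV and mouse as the authors made them, unfiltered, filtered and rarefied, with a taxonomy. The methods describe operational taxonomic units clustered by similarity, whereas the tables hold ASVs. How the ASVs were made, and which release of the taxonomy named them, are not given in the sources used here. Counts of the filtered table were summed per family and genus. The ASV number used the rarefied table.

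Each of 7 comparisons was fitted on its own 12 mice with edgeR's quasi-likelihood test (edgeR 4.0.16, R 4.3.3, TMM scaling, at least 10 counts in at least 4 mice), with Benjamini-Hochberg adjustment over all features of the level. Single values per mouse had two-sided exact permutation tests over the 924 assignments of 12 mice to 2 groups of 6 (SciPy 1.17.1), and their 95% intervals invert that test. The smallest p of that design is 0.0022. The permutation Kruskal-Wallis test drew 100000 resamples. The expected ASV number in 100 family counts is hypergeometric. A floor of 3 counts per mouse stands in for 0 counts in an "at least" fold. DESeq2 1.42.0 was an alternative. Its adjusted p is not available for taxa with an outlying count, nor for Roseburia in hydroxytyrosol against tyrosol mice, which had an unadjusted p only. Those taxa are left out there.

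Tested on simulated data at the genus level of model against control mice (90 genera), the fit recovered 0% of genera changed by 3 on the log2 scale, 90.9% of those changed by 6 and 100% of those changed by 10. For its 411 ASVs these were 0%, 17.5% and 86.4%. Of the calls there, 9.09% and 8.33% of the genera (changes of 6 and 10) and 10% and 4.30% of the ASVs were false. In hydroxytyrosol against model mice, 0%, 75% and 100% of the changed genera (94 tested) and 0%, 31.9% and 90.3% of the changed ASVs (290 tested) were recovered, with 5.26% and 0% of the genus calls and 4.17% and 2.99% of the ASV calls false.

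Named are the genera of the family, the 10 ASVs with the largest mean share, the leading ASV of each mouse, and up to 3 rises and 3 falls among the ASVs called in each comparison. The 4 ASVs that led in a single mouse and were in no other list are not described. The members and lists were chosen with earlier results of these data known. Of 75 pairs of mice within groups 0 had identical counts. No cage or batch is named in the labels or methods, so p-values measure the spread between these mice, and cage cannot be told apart from group. Reads carry no molecular identifiers, so intervals on shares cover counting error only. Sequences of the ASVs are not printed.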

Additional observations from a re-analysis of the deposited data

Results flagged for a closer look

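In 48 sets of 6 mice, 16 single values lay far from the other 5 of their group by Dixon's test. The sets were the family's share, both ASV numbers and 7 genera (counting the ASVs without a genus name as 1, and leaving out the 3 genera found in a single mouse), in each group with 6 values that were not all equal. Chance flags about 1 in 20 groups of normal values, and a set with a single mouse above 0, such as Dorea in control and in model mice, is always marked. For the family's share these were control mouse 4 at 3.84% and model mouse 6 at 14.6%. Control mouse 4 also stood apart in ASVs without a genus name, at 3.53%. For [Ruminococcus] they were control mouse 6 at 0.170%, model mouse 6 at 13.8% and salidroside mouse 4 at 1.60%. For Blautia it was hydroxytyrosol mouse 5 at 1.35%. For Dorea they were control mouse 3 at 0.00596%, model mouse 6 at 0.126%, salidroside mouse 6 at 0.578% and hydroxytyrosol mouse 5 at 0.354%. For Coprococcus they were salidroside mouse 4 at 0.289% and tyrosol mouse 1 at 0.314%, for Clostridium control mouse 3 at 0.0143% and tyrosol mouse 4 at 0.117%, and for Roseburia model mouse 5 at 0.0259%. Model mouse 6 was marked in 3 of these sets and was the model mouse with the lowest Acinetobacter share, 0.166%.

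Between compounds edgeR called 2 ASVs. ASV 8 had a fitted log2 fold change of 10.37 for hydroxytyrosol against tyrosol and ASV 9 of 9.48 for hydroxytyrosol against salidroside, and each had 0 counts in the second group, so these fitted values are no bounds. Both passed the filter on low counts through the hydroxytyrosol group alone, and both calls were lost without the filter.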

How the results depend on the processing

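The 42 tested results on the family, its ASV number and its counts of called genera and ASVs kept their direction and side of the threshold, or for counts of calls stayed within 1.5 times the count given, in 443 of 503 values with 1 mouse left out and in 193 of 238 values under other alternatives. The 16 called genera and ASVs kept their call in 134 of 164 and 76 of 99 values, and the others kept the direction but lost the call. These values leave out the fits in which a member fell under the filter and could not be called, namely Blautia and ASVs 5, 8, 32 and 33, and ASV 11 with hydroxytyrosol, without any of 4 mice each. Among the other alternatives, DESeq2 is left out for [Ruminococcus] and ASVs 1, 3 and 5 in model against control, which had no adjusted p. Members that fell under the filter of at least 50 counts are left out there too. Where not stated, the cause of a change was not tested.

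The family's share changed direction under several settings. Taken from Clostridiales counts, the difference of model against control mice was 36.8 and passed among the Clostridiales families, and the differences turned to 0.689 for salidroside and -1.75 for hydroxytyrosol against model mice and to -2.44 for hydroxytyrosol against salidroside. Without both mice 6, chosen after seeing the data, model against control was -0.256 in share and -2.80 in ASV number. Mean ranks gave 2 and the log2 scale 0.748 for salidroside against model, and 2 and 0.536 for tyrosol against model. With Acinetobacter taken from the total, the share differed by 0.490 for tyrosol and -0.199 for hydroxytyrosol against model, -0.622 for salidroside and -0.689 for hydroxytyrosol against tyrosol, and -0.0668 for hydroxytyrosol against salidroside. The family's edgeR value of hydroxytyrosol against model reversed in 7 of 12 values with 1 mouse left out, and it was 0.31 without TMM, 0.085 with DESeq2, 0.41 without the filter, 0.066 with all 30 mice in 1 model and 0.14 with Acinetobacter removed.

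With 1 mouse left out, the share differed by -0.155 to 2.70 (model against control), -0.999 to 1.91 (salidroside against model), -1.48 to 1.38 (tyrosol against model), -0.136 to 3.06 (hydroxytyrosol against model) and -0.0896 to 1.05 (salidroside against tyrosol). The family's edgeR value ran from -0.59 to 1.37, -1.45 to 1.10, -0.92 to 1.74 and -0.20 to 0.73 for the last 4. The ASV number of model against control ran from 0.1 to 11.4. It ran from -0.967 to 9.73, 2.53 to 12.7, 6.03 to 18.1 and -7.13 to 0.333 for the same 4, and from -0.133 to 8.67 for hydroxytyrosol against tyrosol. At equal family depth it ran from -3.66 to -1.46 for salidroside against tyrosol, -3.04 to -1.21 for hydroxytyrosol against tyrosol and -0.751 to 1.46 for hydroxytyrosol against salidroside.

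Called genera of model against control were 1 with DESeq2, with at least 50 counts and with the replicate block, 0 by mean ranks, and 0 to 2 with 1 mouse left out. Tyrosol against model had 0 to 1 with 1 mouse left out, and hydroxytyrosol against salidroside 1 with DESeq2. Called ASVs were 2 for model against control without TMM, with DESeq2 (ASVs 4 and 10) and with the block. Without the filter 0 ASVs were called there and in salidroside, tyrosol and hydroxytyrosol against model and in hydroxytyrosol against tyrosol and against salidroside, with all ASVs entering the adjustment. With at least 50 counts, 0 were called for salidroside against model, 1 for tyrosol against model, 0 for hydroxytyrosol against tyrosol and 1 for salidroside against tyrosol. The last was also 1 with DESeq2 and with Acinetobacter removed, and hydroxytyrosol against salidroside had 2 with DESeq2. With 1 mouse left out, called ASVs ran from 1 to 5 (model against control), 0 to 2 (salidroside against model), 1 to 3 (tyrosol against model), 1 to 4 (hydroxytyrosol against model), 0 to 2 (hydroxytyrosol against tyrosol) and 0 to 1 (hydroxytyrosol against salidroside).

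Mice with the same number in different groups are different animals, and over 70 families their deviations from the group means correlated between -0.490 and 0.464, with at most 3 of 6 pairs above 0.1, so the numbers were not taken as pairs. With the replicate block the family's edgeR value was 0.70, 0.16 and 1.12 for salidroside, tyrosol and hydroxytyrosol against model, and salidroside against model had 0 called ASVs. The block's edgeR adjusted p was 0.0556 for [Ruminococcus], 0.0570 for ASV 10 and 0.715 for ASV 5 (log2 fold change 1.28) in model against control, 0.437 for ASVs 2 and 11 in salidroside against model, and 0.162 for ASV 32 and 0.185 for ASV 33 in tyrosol against model, and these calls were lost. The other genera and ASVs called without the block stayed called with it. DESeq2 gave no adjusted p for the family (model against control, salidroside against model), for [Ruminococcus] (model against control, salidroside and tyrosol against model), or for ASVs 1, 3 and 5 in model against control. Of the 529 ASVs 504 were under the filter in every comparison, 369 ASVs were found in 1 mouse only, and the part of depth in this was not tested.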
